A study of Drosophila melanogaster with 6 samples.

Results

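The genes described here encode the machinery that copies DNA in S phase. The list holds 34 genes chosen by name and function, of the 17714 genes in the files: 9 for the origin complex and its loaders, 14 for the replicative helicase and its activators, 9 for the fork and 2 for nucleotide supply. The choice was made with earlier results of these data known. In the files 33 of them were found under the listed symbol, and latheo (lat) was found as Orc3 through its RefSeq synonym. All 34 had enough reads to be tested.

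Poly(A) RNA was sequenced from Kc cells, a Drosophila melanogaster line from embryos that has traits of plasmatocytes, the macrophage-like blood cells. The 3 KO libraries are labelled ko in their source and genotype fields, and the 3 WT libraries are labelled wild type. The series is about CG14906 (mettl4), an m6A methyltransferase gene, and the contrast is between mettl4 ko and wt cells. Titles of the KO samples carry the prefix OE, which the genotype field does not explain. No label says which alteration was made, whether a group came from 1 clone, or whether its libraries came from separate cultures. The p-values therefore reflect variation among these libraries alone, and that variation may be technical.

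Replication starts when the origin recognition complex (ORC), with Cdc6 and Cdt1, loads the ring of Mcm proteins onto DNA. Kinases such as Cdc7 with its Dbf4 partner then let Cdc45 and GINS join the ring, which becomes the moving helicase. Behind it, the clamp PCNA is loaded by replication factor C (RFC), single strands are covered by replication protein A (RPA), and ribonucleotide reductase supplies deoxynucleotides. In dividing fly cells many of these genes are known targets of E2F and Dp.

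Expected counts per library ranged from 9963557 to 18906951. CG14906 RNA did not mark the label, at 20.3, 18.5 and 20.2 CPM (counts scaled to a common library total) in KO replicates 1 to 3 and 18.9, 20.1 and 16.4 CPM in WT replicates 1 to 3 (log2 fold change 0.10, 95% interval -0.13 to 0.33, adjusted p = 0.435 in edgeR's quasi-likelihood test). Directions below are those of the libraries labelled KO. Replicate 1 of each group stood apart from the others on the second principal component (12.5% of the variance). WT replicates 2 and 3 were the closest pair within a group, with a chi-square per gene of 1.65, beside 2.94 for KO replicates 2 and 3 and at least 18.5 for the other pairs. Of 11 plasmatocyte markers tested, 7 were higher and 2 lower in KO at adjusted p under 0.05 in edgeR's test. That is 81.8%, beside 54.1% of all genes tested. The summed level of the markers was 7392 to 11655 CPM in KO and 4773 to 7002 CPM in WT. Col4a1 and vkg, named after their values were seen, had the widest differences in CPM within that sum. Col4a1 stood at 2183 ± 682 CPM in KO and 792 ± 302 CPM in WT (SD, n = 3 each). vkg stood at 1365 ± 399 CPM in KO and 512 ± 210 CPM in WT (SD, n = 3 each). For both, replicate 1 was the lowest of its group. Single markers moved far and in both directions. Ppn stood at 718 ± 230.5 CPM in KO and 16.7 ± 2.06 CPM in WT (SD, n = 3 each) (log2 fold change 5.43, adjusted p = 1.68e-05) and Pxn at 615 ± 264 CPM in KO and 34.7 ± 13.1 CPM in WT (SD, n = 3 each) (log2 fold change 4.15, adjusted p = 0.000288). drpr was higher (log2 fold change 1.16, adjusted p = 1.04e-05), and eater was lower, at 35.1 ± 2.42 CPM in KO and 149.95 ± 3.99 CPM in WT (SD, n = 3 each) (log2 fold change -2.10, adjusted p = 2.27e-06). Hml overlapped between the groups, at 4494 ± 719 CPM in KO and 4174 ± 700.4 CPM in WT (SD, n = 3 each) (log2 fold change 0.11, adjusted p = 0.591), and NimC1, which was not tested, had at most 43 counts in any library. The male-line RNA roX2 had at most 3 counts in any library, and roX1 stood at 1.295 ± 0.355 CPM in KO and 0.253 ± 0.0833 CPM in WT (SD, n = 3 each) (log2 fold change 2.37, adjusted p = 0.00338). msl-2, listed with the roX genes, went the other way, at 5.93 ± 1.299 CPM in KO and 10.1 ± 0.8897 CPM in WT (SD, n = 3 each) (log2 fold change -0.77, adjusted p = 0.0096). The msl-2 RNA level is not read here as a mark of sex. The part of these marker differences in the results below was not tested.

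The replication genes moved in both directions and by small amounts. In KO, 9 of 34 were higher and 10 were lower, and 15 did not pass the test (edgeR, adjusted p under 0.05 over all genes tested). Among the 8405 genes tested, 27.7% were higher and 26.5% lower, 54.1% in all, so the share of replication genes that passed, 55.9%, was near the background. Their median log2 fold change was -0.12, beside 0.01 for all genes tested, and their median absolute log2 fold change was 0.28, beside 0.33. No member reached a 2-fold difference in either direction, where 13% of all genes tested did so with a call, and 6.28% of the 6112 tested genes within the members' range of mean CPM. The genes in that range had a median log2 fold change of -0.04 and a median absolute log2 fold change of 0.28. Of them 26.2% were higher and 31.4% lower, 57.6% in all. KO and WT libraries did not overlap in CPM for 27 of the 34 genes (79.4%), beside 63.3% of all genes tested and 66.1% of the genes in that range. With the replicate number as a block 9 members were called higher and 14 lower, where 60.2% of all genes tested were called. Without replicate 1 of both groups 10 were higher and 19 lower, where 69.6% of genes were called. In bulk libraries, fewer cells in S phase and less RNA per cell cannot be told apart.

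Summed over the 34 genes, the level was 6519, 6399 and 6432 CPM in KO replicates 1 to 3 and 6718, 6714 and 6762 CPM in WT replicates 1 to 3. In TPM, RSEM's relative transcript abundance, which takes transcript length into account, the sum was 5686, 5668 and 5887 in KO and 6126, 6209 and 6263 in WT. The KO sums lay below the WT sums on both scales. Sums under other scalings were not computed. Upper quartile factors moved the members' median log2 fold change from -0.12 to -0.06. They also moved the median of all genes tested, from 0.01 to 0.06.

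Mean levels per gene covered a wide range, from 17.3 TPM for Cdc6 to 681 TPM for PCNA in KO and from 19.7 TPM for Psf2 to 750.1 TPM for PCNA in WT. PCNA, the 3 RPA genes, RnrL, RnrS, geminin and RfC4 formed the upper end in both groups, each with a mean of at least 308 TPM. The loader gene Cdc6, with 19.1, 16.9 and 15.8 TPM in KO against 20.5, 22.01 and 17.04 TPM in WT, and the GINS gene Psf2 were the lowest.

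**Figure D1:**
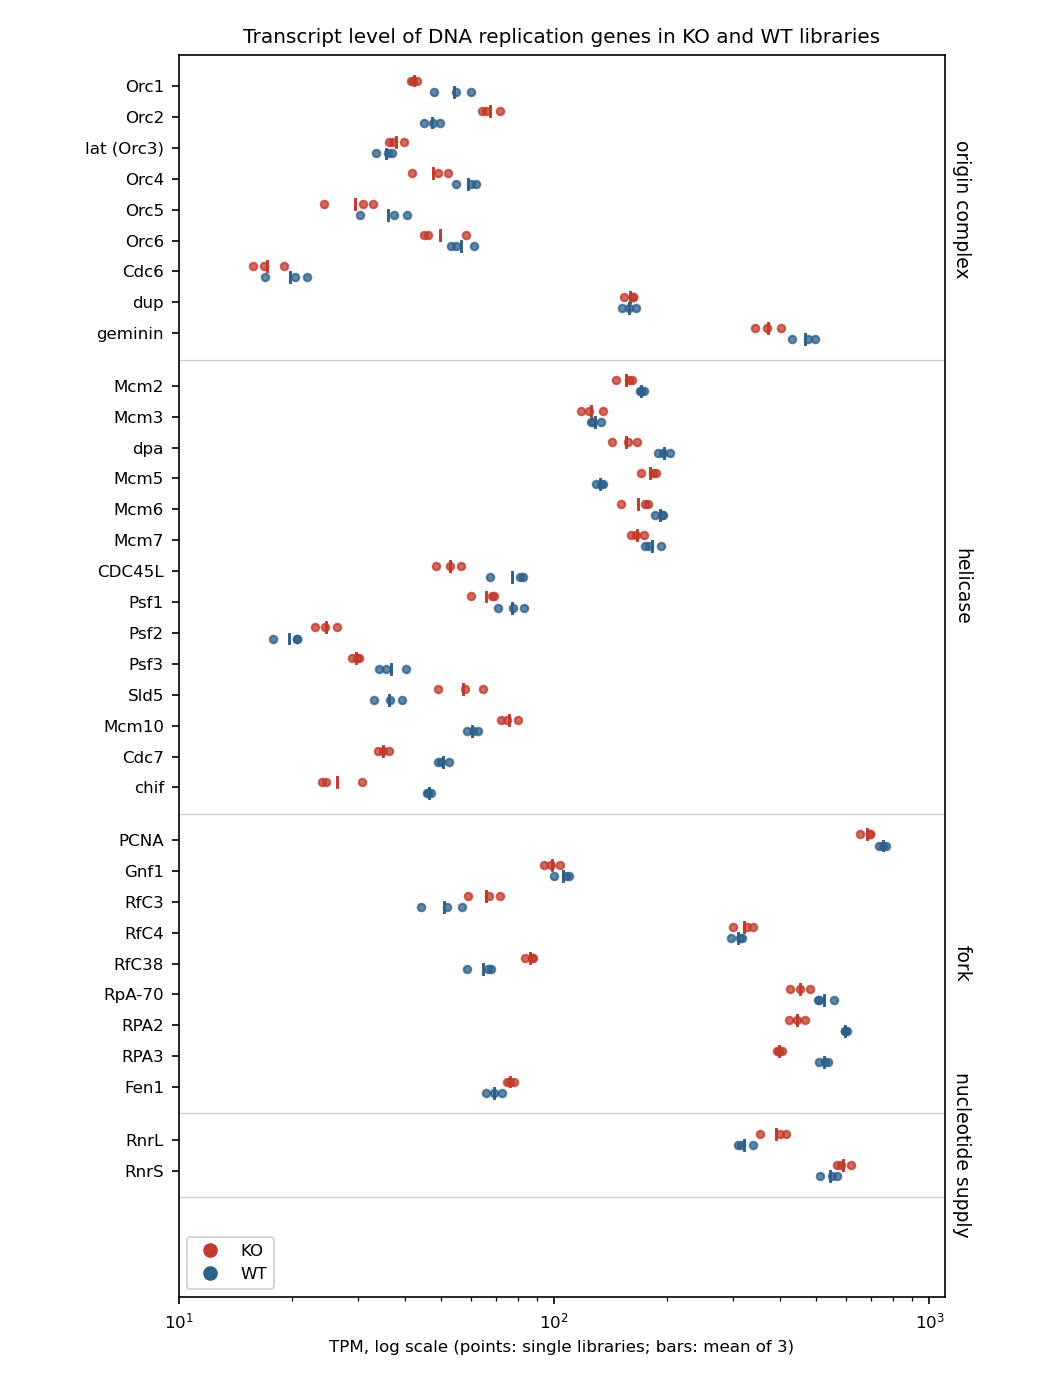
TPM on a log scale for the 34 replication genes, grouped by step, with 1 point per library (KO above, WT below) and a bar at each mean of 3. Mean levels run from Cdc6 (17.3 TPM) to PCNA (681 TPM) in KO and from Psf2 (19.7 TPM) to PCNA (750.1 TPM) in WT, and the differences between the groups are small against that range.

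ORC, the 6-subunit complex that marks origins, changed unevenly: Orc2 was higher in KO, Orc1 and Orc4 were lower, and lat, Orc5 and Orc6 did not pass the test. Orc2 stood at 88.8, 84.8 and 91.8 CPM in KO against 61.96, 57.8 and 64.1 CPM in WT. Every KO library was above every WT library (log2 fold change 0.53, SE 0.06, adjusted p = 0.000408). With the median of its chromosomal segment as an offset, described further on, Orc2 was not called (log2 fold change 0.05, adjusted p = 0.532).

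Orc1, the ATPase subunit of ORC that contacts Cdc6, stood at 90.1, 89.6 and 88.5 CPM in KO against 101, 125 and 114 CPM in WT (log2 fold change -0.33, SE 0.08, adjusted p = 0.0099). The KO libraries lay close together and below all WT libraries, and Orc1 was not called with the segment offset (log2 fold change -0.16, adjusted p = 0.139). Orc4 had 45.1, 51.7 and 53.2 CPM in KO against 57.2, 63.7 and 61.7 CPM in WT (log2 fold change -0.28, SE 0.08, adjusted p = 0.0226). The groups did not overlap for Orc4, but its call was lost without WT replicate 2 or WT replicate 3, with those libraries summed, on log2(TPM + 0.1) and with the segment offset (log2 fold change -0.05, adjusted p = 0.632). For lat, all KO libraries lay above all WT libraries without a call, at 63.2, 59.7 and 63.05 CPM in KO against 58.1, 58.7 and 53.1 CPM in WT (log2 fold change 0.13, adjusted p = 0.122). Orc5 (log2 fold change -0.28, adjusted p = 0.118) and Orc6 (log2 fold change -0.15, adjusted p = 0.335) overlapped between the groups. Orc5 was called lower with the replicate block (adjusted p = 0.0118), and Orc6 when KO replicate 1, or replicate 1 of both groups, was left out.

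Among the factors that load the helicase, geminin was lower and the other 2 were not called. geminin, the protein that binds Cdt1 and blocks loading, had 205, 216 and 228 CPM in KO against 249, 271 and 284 CPM in WT (log2 fold change -0.31, SE 0.07, adjusted p = 0.00697). The groups did not overlap, and geminin was not called with the segment offset (log2 fold change -0.18, adjusted p = 0.0689). Its partner double parked (dup), the fly Cdt1, stood at 309, 286 and 293 CPM in KO against 280.4, 300.3 and 289 CPM in WT (log2 fold change 0.03, 95% interval -0.10 to 0.16, adjusted p = 0.65). Cdc6, the ATPase that acts with Cdt1, had 32.4, 27.9 and 25.3 CPM in KO against 33.6, 35.6 and 27.6 CPM in WT (log2 fold change -0.17, 95% interval -0.47 to 0.13, adjusted p = 0.292). Both overlapped between the groups.

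The 6 genes of the Mcm ring did not move together. Mcm5 was higher in KO, disc proliferation abnormal (dpa), the fly Mcm4, was lower, and Mcm2, Mcm3, Mcm6 and Mcm7 did not pass the test. Mcm5 stood at 285, 306 and 291 CPM in KO against 210.04, 213 and 216 CPM in WT (log2 fold change 0.46, SE 0.05, adjusted p = 0.000272). Its lowest KO library was well above its highest WT library, and it was called under all 18 alternative settings. With the segment offset the difference of Mcm5 was smaller (log2 fold change 0.17, adjusted p = 0.027), as the segment median was 0.28. dpa stood at 274, 296 and 303 CPM in KO against 353, 375 and 358 CPM in WT (log2 fold change -0.32, SE 0.06, adjusted p = 0.00317). The groups were apart for dpa too, in the opposite direction, but it was not called with the segment offset (log2 fold change -0.14, adjusted p = 0.0824).

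For Mcm2, Mcm6 and Mcm7 all KO libraries lay below all WT libraries without a call. Mcm2 had 319.7, 285 and 298 CPM in KO against 326, 323 and 329.9 CPM in WT (log2 fold change -0.12, adjusted p = 0.119). Mcm6 had 288, 333 and 316 CPM in KO against 345, 354 and 358 CPM in WT (log2 fold change -0.17, adjusted p = 0.0533), and was called lower with the replicate block (adjusted p = 0.0283). Mcm7 had 268, 270.4 and 276 CPM in KO against 283, 287 and 308 CPM in WT (log2 fold change -0.11, adjusted p = 0.118). Mcm3 overlapped between the groups, at 222, 248 and 221 CPM in KO against 231, 226 and 240.4 CPM in WT (log2 fold change -0.02, 95% interval -0.16 to 0.13, adjusted p = 0.851).

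Because the ring holds 1 copy of each subunit, each gene was also expressed as a share of the summed TPM of the 6 in the same library. Shares within a complex depend on each other, so a larger share of some subunits lowers the shares of the rest. Mcm5 made up 18.9%, 19.3% and 18.7% in KO against 13.3%, 13.3% and 13.2% in WT. dpa made up 15.8%, 16.2% and 16.97% in KO against 19.4%, 20.3% and 19.001% in WT. Neither share overlapped between the groups. By mean TPM, Mcm5 was the highest of the 6 in KO (180.4 TPM) and the fifth in WT (133 TPM), where dpa was the highest (196 TPM). The highest subunit exceeded the lowest, Mcm3 in both groups, by 1.44 times in KO and 1.52 times in WT. In ORC, Orc2 made up 24.5%, 23.9% and 25.2% in KO against 17.6%, 15.2% and 16.6% in WT, and the highest subunit was Orc2 in KO and Orc4 in WT.

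**Figure D2:**
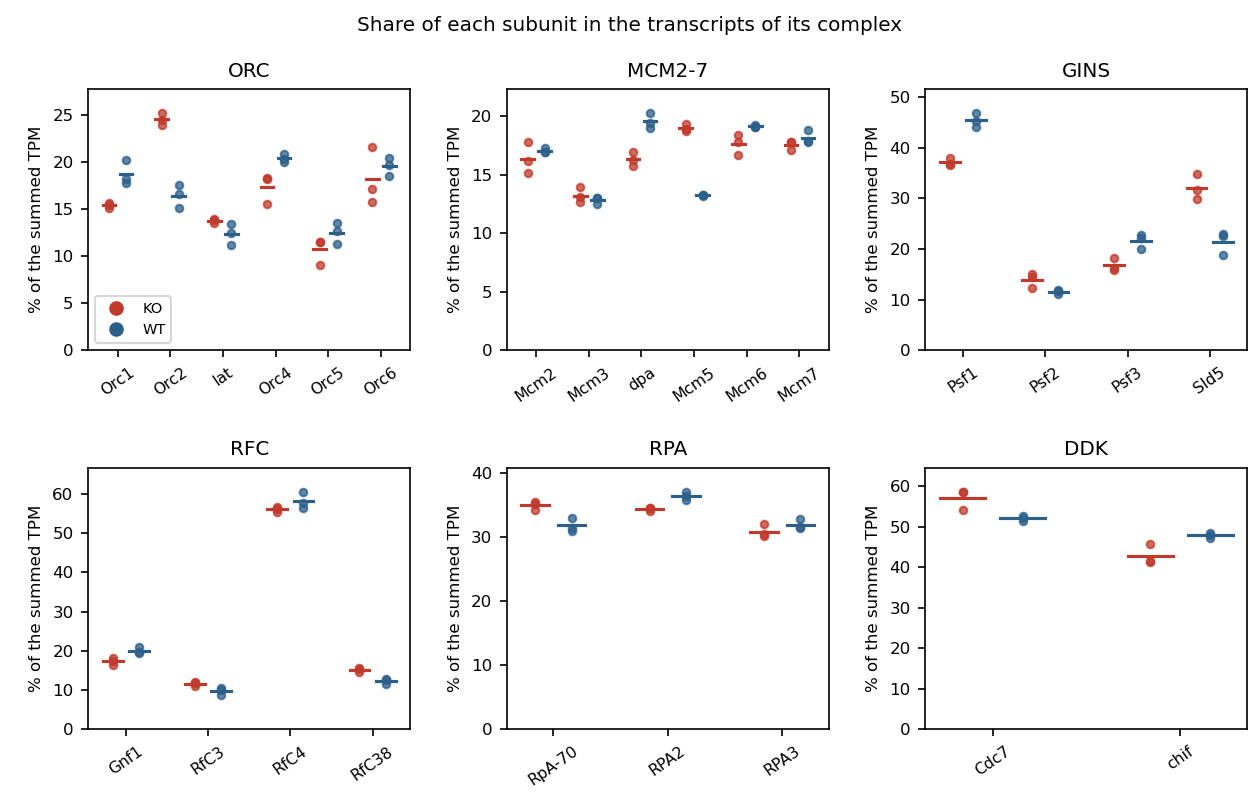
Share of each subunit in the summed TPM of its complex (percent, axes from 0), with 1 point per library, KO left of WT, and a line at each mean of 3; DDK is Cdc7 with chif. Orc2, Mcm5 and Sld5 take larger shares in KO (24.5%, 18.97% and 32.1%) than in WT (16.5%, 13.2% and 21.4%), while Orc1, dpa and Psf1 take smaller ones. Shares within a complex depend on each other, and Psf1 itself was not called.

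Around the ring, CDC45L and both genes of the activating kinase were lower in KO. CDC45L, the fly Cdc45 that completes the helicase, had 72.7, 77.9 and 80.7 CPM in KO against 98.4, 118 and 117 CPM in WT (log2 fold change -0.53, SE 0.08, adjusted p = 0.00167). The groups did not overlap, and CDC45L was not called with the segment offset (log2 fold change -0.02, adjusted p = 0.846). Cdc7, the kinase that phosphorylates Mcm proteins, had 76.8, 70.8 and 70.1 CPM in KO against 106, 101 and 99.2 CPM in WT (log2 fold change -0.49, SE 0.06, adjusted p = 0.000447).

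chiffon (chif), the fly relative of the Cdc7 activator Dbf4, showed the widest difference of the 34 genes on the log2 scale. It had 141, 108 and 106 CPM in KO against 208, 201 and 202 CPM in WT (log2 fold change -0.78, SE 0.11, adjusted p = 0.000868). KO replicate 1 lay above the other KO libraries but below all WT libraries. Cdc7 and chif were called lower under all 18 alternatives. chif shares 1507 of its 7747 exonic bases with Hyls1 on the same strand, so reads there could belong to either gene.

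Of the 4 GINS genes, whose products bind the ring as a complex, 2 were higher, 1 was lower and 1 was not called. Sld5 had 23.4, 27.1 and 29.4 CPM in KO against 16.9, 18.05 and 15.2 CPM in WT (log2 fold change 0.68, SE 0.11, adjusted p = 0.00184). Psf2 had 12.7, 13.3 and 11.4 CPM in KO against 8.80, 10.1 and 10.3 CPM in WT (log2 fold change 0.36, SE 0.12, adjusted p = 0.0341). Psf3 had 22.9, 21.3 and 22.03 CPM in KO against 26.4, 24.4 and 28.9 CPM in WT (log2 fold change -0.27, SE 0.08, adjusted p = 0.0283). None of these 3 overlapped between the groups. Nor did Psf1, which had 25.3, 28.5 and 27.3 CPM in KO against 29.01, 31.3 and 33.5 CPM in WT without a call (log2 fold change -0.21, adjusted p = 0.0695), and was called lower with the replicate block (adjusted p = 0.0433).

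Sld5 was called under all 18 alternatives, with a smaller difference under the segment offset (log2 fold change 0.35, adjusted p = 0.0343). Psf2 was called under 8 of the 18, was lost without KO replicate 1, KO replicate 2 or any WT replicate (adjusted p up to 0.124), and turned its direction with the segment offset (log2 fold change -0.09, adjusted p = 0.57). Psf3 was called under 12 of the 18, and was lost without KO replicate 2, KO replicate 3 or WT replicate 3 (adjusted p up to 0.0947) and with the segment offset (log2 fold change -0.14, adjusted p = 0.226). Sld5 made up 29.96%, 31.7% and 34.8% in KO against 22.7%, 22.9% and 18.7% in WT of the summed GINS TPM. Psf1 had the largest share in both groups, 36.8%, 37.9% and 36.7% in KO against 44.1%, 45.2% and 46.9% in WT.

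Mcm10, which acts when the assembled helicase starts to unwind DNA, was higher in KO. It had 139.5, 142 and 147 CPM in KO against 117, 112 and 108 CPM in WT (log2 fold change 0.34, SE 0.05, adjusted p = 0.00137). The groups did not overlap, and Mcm10 was called under all 18 alternatives. It shares 367 of its 2820 exonic bases with Ret on the opposite strand.

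At the fork, each of the 3 RPA genes was lower in every KO library than in any WT library, and 2 passed the test. RPA2, the middle subunit, had 281, 249 and 251 CPM in KO against 349.8, 342 and 343 CPM in WT (log2 fold change -0.40, SE 0.06, adjusted p = 0.00129). RPA3, the small subunit, had 137, 129.7 and 121 CPM in KO against 170.4, 169.7 and 161 CPM in WT (log2 fold change -0.37, SE 0.06, adjusted p = 0.00158). The large subunit RpA-70 had 693, 601 and 619 CPM in KO against 778, 699.7 and 698 CPM in WT and was not called (log2 fold change -0.19, adjusted p = 0.0787), though it was with the replicate block (adjusted p = 0.0169). Replicate 1 was the highest of each group for all 3. Per length the means of the 3 stood near each other, between 399 and 452 TPM in KO and between 522 and 598 TPM in WT. RPA3 kept its call with the segment offset (log2 fold change -0.20, adjusted p = 0.0297), and RPA2 did not (log2 fold change -0.06, adjusted p = 0.45).

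The clamp gene PCNA had 445, 410.2 and 423 CPM in KO against 476, 449 and 462 CPM in WT. All KO libraries were below all WT libraries, yet the difference did not pass the test (log2 fold change -0.12, 95% interval -0.25 to 0.01, adjusted p = 0.104). With the segment offset PCNA turned direction and was called higher (log2 fold change 0.17, adjusted p = 0.0433). Of 4 genes for RFC, the clamp loader, RfC38 and RfC3 were higher, and Gnf1, the large subunit, and RfC4 overlapped between the groups without a call.

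RfC38 had 70.04, 71.99 and 69.4 CPM in KO against 47.6, 53.2 and 54.7 CPM in WT (log2 fold change 0.44, SE 0.07, adjusted p = 0.00148), and kept its call under all 18 alternatives. With the segment offset its difference was smaller (log2 fold change 0.23, adjusted p = 0.0294). It shares 404 of its 1604 exonic bases with Nup160 on the opposite strand. RfC3 had 43.5, 48.2 and 50.04 CPM in KO against 31.5, 36.4 and 39.96 CPM in WT (log2 fold change 0.39, SE 0.10, adjusted p = 0.0159). The groups did not overlap, but the call was lost without KO replicate 2, KO replicate 3 or WT replicate 2 (adjusted p up to 0.056) and with the segment offset (log2 fold change 0.25, adjusted p = 0.086). RfC4 was the most abundant of the 4 per length, at 321 ± 19.04 TPM in KO and 308 ± 11.4 TPM in WT (SD, n = 3 each), with a log2 fold change of 0.08, 95% interval -0.05 to 0.21, adjusted p = 0.237. Gnf1 stood at 98.7 ± 4.69 TPM in KO and 106 ± 5.09 TPM in WT (SD, n = 3 each), with a log2 fold change of -0.08, 95% interval -0.20 to 0.05, adjusted p = 0.264.

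Fen1, the nuclease that trims Okazaki fragments, had 68.2, 69.4 and 65.7 CPM in KO against 58.02, 63.02 and 60.2 CPM in WT (log2 fold change 0.17, SE 0.06, adjusted p = 0.043). This was the smallest difference called among the 34 genes. It was called under 6 of the 18 alternatives and was lost without any one of the 6 libraries (adjusted p up to 0.238 over the alternatives).

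Both ribonucleotide reductase genes lay higher in KO, 1 of them with a call. RnrL, the large subunit, had 623, 689.9 and 692 CPM in KO against 579, 529 and 522 CPM in WT (log2 fold change 0.30, SE 0.07, adjusted p = 0.00935). Replicate 1 lay nearest to the other group in both groups, and RnrL was not called with the segment offset (log2 fold change 0.16, adjusted p = 0.101). RnrS, the small subunit, had 657, 589 and 585 CPM in KO against 527, 557 and 575 CPM in WT (log2 fold change 0.14, 95% interval -0.02 to 0.30, adjusted p = 0.115). RnrS was the more abundant per length, at 589 ± 27.05 TPM in KO and 543 ± 27.5 TPM in WT (SD, n = 3 each), beside RnrL at 389.96 ± 31.5 TPM in KO and 321 ± 15.97 TPM in WT (SD, n = 3 each).

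**Figure D3:**
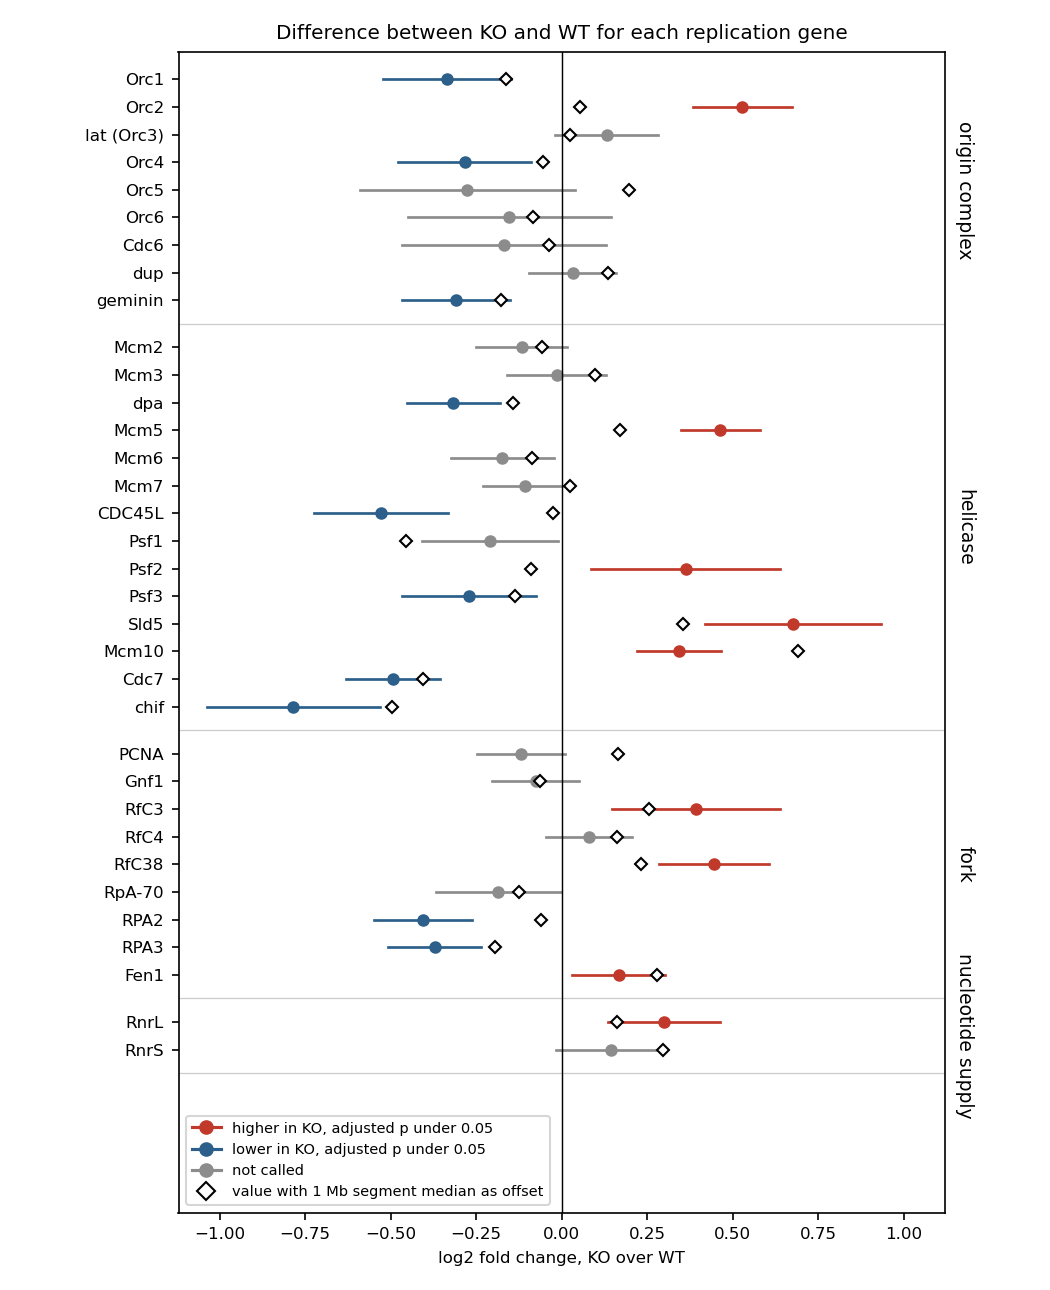
Fitted log2 fold change, KO over WT, with its 95% interval for each of the 34 genes. Red marks the 9 called higher, blue the 10 called lower and grey the 15 not called, and open diamonds give the value with the segment median as an offset, which lies near 0 for Orc2 and CDC45L and farther out for Mcm10 (0.69).

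The difference of a replication gene was also set beside that of its chromosomal neighbours. Each arm was divided into segments of 1 Mb from its start in dm6, and the median log2 fold change of the other tested genes in the segment was taken for each member. These medians ran from -0.50 to 0.47. The member and its segment median had the same sign for 28 of 34 genes, with a Pearson r of 0.70 and a Spearman rho of 0.66 across the 34 genes. Over 8237 tested genes the same measures were 0.23 and 0.40. These are not like for like, since log2 fold changes ran from -10.3 to 12.95 over all genes tested and from -0.78 to 0.68 over the members. Genes of matched expression were not compared, and matching signs were not counted for all genes. Whether the members follow their segments more than other genes do was therefore not tested. All points come from the same 6 libraries and the same scaling, and genes of a segment share its median, so these values are descriptions.

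By arm, 4 of 6 members on X were lower in KO and the other two were not called, where 38.7% of 1469 tested genes on X were lower and 17.2% higher. On 3R 3 of 6 members were higher and the others were not called, where 40.9% of 2020 tested genes were higher and 12.97% lower. On 2L 5 of 8 members were higher and 2 lower, where 27.3% of 1468 tested genes were higher and 30.7% lower. On 2R 1 of 10 members was higher and 4 lower, where 20.03% of 1717 tested genes were higher and 32.7% lower. The 4 members on 3L were not called, where 29.1% of 1623 tested genes were higher and 21.5% lower. DNA copy number was not measured in these files.

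Orc2, at 13964885 to 13967075 on the plus strand of 3R, stood near its neighbours. The other 52 tested genes of its segment had a median log2 fold change of 0.47, with 37 higher and 1 lower, beside 0.53 for Orc2. CDC45L, at 1028291 to 1030556 on the minus strand of X, stood at -0.53 beside a median of -0.50 over 83 other genes, of which 8 were higher and 49 lower. Psf2 (0.36 beside 0.45) and RPA2 (-0.40 beside -0.34) were likewise close to their segments.

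Other members stood away from their neighbours. Mcm10, at 21179933 to 21182812 on the plus strand of 2L, had a log2 fold change of 0.34 in a segment whose 67 other tested genes had a median of -0.36, with 4 higher and 27 lower. chif stood at -0.78 beside a median of -0.28, Cdc7 at -0.49 beside -0.08, and Sld5 at 0.68 beside 0.28. Psf1, not called, stood at -0.21 where its 101 neighbours had a median of 0.25.

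Fitted with the segment median as an offset in the KO libraries, 8 members were called higher and 4 lower, where 43.9% of all genes tested were called. Of the 19 genes called without the offset, 8 stayed called in the same direction: Mcm5, Sld5, Mcm10, RfC38, Fen1, Cdc7, chif and RPA3. In that order, their log2 fold changes with the offset were 0.17, 0.35, 0.69, 0.23, 0.28, -0.41, -0.50 and -0.20. Psf1 was then called lower (log2 fold change -0.46, adjusted p = 0.00443), and PCNA, RfC4 (log2 fold change 0.16, adjusted p = 0.0432) and RnrS (log2 fold change 0.30, adjusted p = 0.0114) were called higher. The offset takes the segment median, which includes the gene itself, as known without error.

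**Figure D4:**
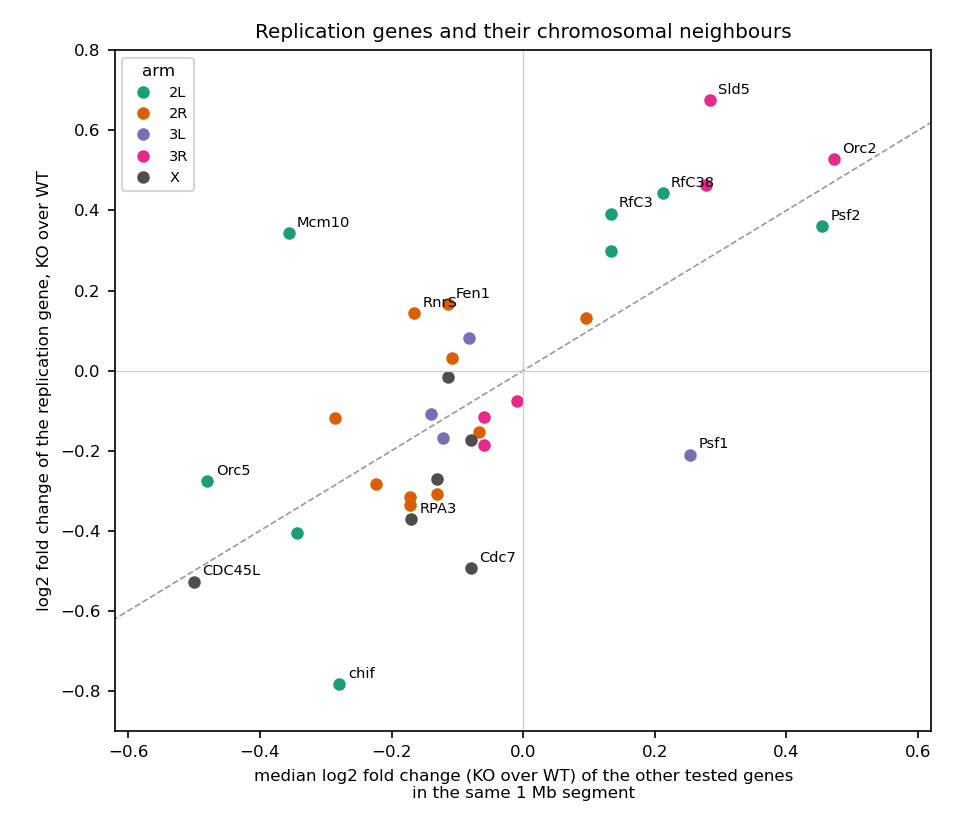
Log2 fold change of each replication gene against the median of the other tested genes in its 1 Mb segment, coloured by arm, with a dashed line where both are equal. For 28 of 34 genes both values have the same sign, with Mcm10 (0.34 against -0.36) and Psf1 (-0.21 against 0.25) among the exceptions.

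In 5 segments 2 members lie together. RpA-70 and Mcm2 on 3R stand head to head with 518 bases between them, and both were lower in every KO library without a call (-0.19 and -0.12). Orc1 and dpa lie 22291 bases apart on 2R and were both called lower (-0.33 and -0.32). RfC3 and RnrL lie 91246 bases apart on 2L and were both called higher (0.39 and 0.30). Cdc7 and Mcm6 lie 14677 bases apart on X, with Cdc7 called lower (-0.49) and Mcm6 not called (-0.17). Cdc6 and Mcm7 on 3L were both not called.

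Read assignment touches some members. Exonic bases are shared with an opposite-strand gene for 13 of the 34 genes and with a same-strand gene for 2 (lat with CG34315, and chif), and strand use in counting is not given in the sources. All 3315 exonic bases of lat are shared, as are 2003 of 2451 bases of Mcm7 (with asRNA:CR45871) and 831 of 2380 bases of Psf3 (with CG17841). Expected counts were whole, to within 0.005, in all 6 libraries for 22 members. The mean transcript length, weighted by isoform abundance, differed between the groups by at most 0.02 on the log2 scale, and 14 members have several transcripts.

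The enzymes that extend the strands were listed apart from the 34 genes. Of 11 DNA polymerase and primase genes, 5 were higher, 2 lower and 4 not called, with a median log2 fold change of 0.10. That is 63.6% called, beside 54.1% of all genes tested (27.7% higher and 26.5% lower). DNApol-delta, the catalytic subunit of the lagging strand polymerase, had 133, 130.1 and 133 CPM in KO against 109.97, 101 and 106 CPM in WT (log2 fold change 0.32, adjusted p = 0.00165). Of its accessory subunits, Pol32 went the other way, at 57.96, 56.1 and 61.5 CPM in KO against 74.2, 77.5 and 81.2 CPM in WT (log2 fold change -0.41, adjusted p = 0.00143). Pol31, another accessory subunit named after its values were seen, was higher (log2 fold change 0.36, adjusted p = 0.00688). DNApol-alpha180 (log2 fold change 0.28, adjusted p = 0.00454) and DNApol-alpha73 (log2 fold change 0.32, adjusted p = 0.00268), subunits of the polymerase that works with primase, were higher. With the segment offset none of these named genes was called (adjusted p from 0.0716 to 0.754).

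Of 13 other fork factors, 5 were higher and 3 lower (61.5% called, beside 54.1% of all genes tested), with a median of 0.12. timeout (tim-2), a fly relative of the fork protection gene Timeless, had 155, 154 and 144 CPM in KO against 88.4, 99.02 and 96.2 CPM in WT (log2 fold change 0.67, adjusted p = 0.000141). cutlet, the fly Ctf18 of an alternative clamp loader, had 52.03, 51.8 and 51.3 CPM in KO against 34.8, 37.6 and 35.9 CPM in WT (log2 fold change 0.52, adjusted p = 0.000491). Top2, the topoisomerase that untangles sister strands, was lower (log2 fold change -0.47, adjusted p = 0.00149), as was mus101, the fly TopBP1 (log2 fold change -0.32, adjusted p = 0.00149). With the segment offset cutlet (log2 fold change 0.04, adjusted p = 0.627) and Top2 (log2 fold change -0.17, adjusted p = 0.0951) were not called, while tim-2 (log2 fold change 0.20, adjusted p = 0.0325) and mus101 (log2 fold change -0.20, adjusted p = 0.0149) were.

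Of 13 nucleotide metabolism genes beside ribonucleotide reductase, 4 were higher and 3 lower, with a median of 0.12, and 2 passed 2-fold. The share called, 53.8%, was near the 54.1% of all genes tested, and so was the share past 2-fold, 15.4% beside 13%. Ts, thymidylate synthase, had 173, 175 and 184 CPM in KO against 89.5, 69.9 and 73.01 CPM in WT (log2 fold change 1.19, SE 0.09, adjusted p = 8.23e-05). CTPsyn, which makes CTP, had 271, 275 and 292 CPM in KO against 155, 146 and 146 CPM in WT (log2 fold change 0.91, adjusted p = 2.95e-05). Lower were the deoxynucleoside kinase gene dnk, at 126, 114 and 105 CPM in KO against 198, 194 and 192 CPM in WT (log2 fold change -0.76, adjusted p = 0.000161), and su(r), a pyrimidine breakdown enzyme, at 28.2, 27.7 and 25.3 CPM in KO against 59.4, 52.1 and 56.2 CPM in WT (log2 fold change -1.05, adjusted p = 7.43e-05). The groups did not overlap for these 4, and all 4 stayed called with the segment offset.

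Of 18 genes that time S phase, 8 were lower and 2 higher, with a median of -0.16. The share called, 55.6%, was near the 54.1% of all genes tested. By direction 44.4% were lower and 11.1% higher, beside 26.5% and 27.7% of all genes tested. E2f2, the repressing E2F factor, had 81.1, 77.8 and 78.1 CPM in KO against 111, 126 and 117 CPM in WT (log2 fold change -0.58, adjusted p = 0.000267). The checkpoint kinase gene grapes (grp), the fly Chk1, was lower (log2 fold change -0.65, adjusted p = 0.000145), as was Rca1, an inhibitor of the anaphase-promoting complex (log2 fold change -0.80, adjusted p = 0.000754). Cdk2, the S phase kinase, had 71.8, 72.6 and 74.9 CPM in KO against 52.3, 53.05 and 55.5 CPM in WT (log2 fold change 0.45, adjusted p = 0.000502). CycE, its cyclin, chosen after its values were seen, stood at 98.5 ± 12.003 CPM in KO and 154 ± 6.73 CPM in WT (SD, n = 3 each), with a log2 fold change of -0.65, SE 0.09, adjusted p = 0.000876. E2f1 (log2 fold change 0.11, adjusted p = 0.328) and Dp (log2 fold change -0.15, adjusted p = 0.0679), also chosen after their values were seen, were not called. Dp was called lower with the replicate block (adjusted p = 0.0426) and without replicate 1 of both groups (adjusted p = 0.0249).

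Of 10 chromatin assembly genes 4 were lower and 1 higher (50% called, beside 54.1% of all genes tested), with a median of -0.13. Lower were mxc, which organises the histone locus body (log2 fold change -0.50, adjusted p = 0.000166), the histone mRNA binding gene Slbp (log2 fold change -0.31, adjusted p = 0.00469) and the CAF-1 subunit gene Caf1-105 (log2 fold change -0.27, adjusted p = 0.00969). The histone chaperone gene Nap1 was higher (log2 fold change 0.27, adjusted p = 0.0303). Of 7 genes for factors known to bind replication gene promoters, 4 were lower and 3 not called. That is 57.1% called, also near the share of all genes tested. Lower were Myb (log2 fold change -0.29, adjusted p = 0.00492), mip130 (log2 fold change -0.36, adjusted p = 0.0102), BEAF-32 (log2 fold change -0.20, adjusted p = 0.044) and lin-52 (log2 fold change -0.28, adjusted p = 0.0452). BEAF-32 overlapped between the groups. With the segment offset Myb kept its call (log2 fold change -0.21, adjusted p = 0.0237), BEAF-32 (log2 fold change -0.08, adjusted p = 0.397) and lin-52 (log2 fold change -0.17, adjusted p = 0.209) lost theirs, and mip130 turned direction without a call (log2 fold change 0.14, adjusted p = 0.236).

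Of 20 mitotic genes, set beside the replication genes as another phase of the cycle, 10 were lower and 3 higher. That is 65% called, beside 54.1% of all genes tested. Their median was -0.20, beside -0.12 for the replication genes. Among the lower ones were the kinesins pav (log2 fold change -0.65, adjusted p = 0.000189) and Klp61F (log2 fold change -0.59, adjusted p = 0.000203), the checkpoint gene mad2 (log2 fold change -0.59, adjusted p = 0.000285) and the midzone gene feo (log2 fold change -0.43, adjusted p = 0.000351). The 3 higher ones, named after their values were seen, were Cdk1, the mitotic kinase (log2 fold change 0.61, adjusted p = 0.00437), and its cyclins CycA (log2 fold change 0.33, adjusted p = 0.00142) and CycB (log2 fold change 0.24, adjusted p = 0.0138). With the segment offset Cdk1 kept its call (log2 fold change 0.47, adjusted p = 0.0164), CycA did not (log2 fold change 0.14, adjusted p = 0.06), and CycB turned direction without a call (log2 fold change -0.04, adjusted p = 0.659). The lower genes pav (-0.57), Klp61F (-0.84), mad2 (-0.45) and feo (-0.30) kept theirs (adjusted p from 6.41e-05 to 0.00254). Of the 20 genes, 10 were called lower and 1 higher with the offset, where 43.9% of all genes tested were called. The lower genes were not all the same as without it. The difference between the mitotic and the replication genes was not tested.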

How the data were processed

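Poly(A) RNA of 3 KO and 3 WT libraries of Kc cells was analysed. CASAVA 1.7, cutadapt, STAR 2.7.0f, RSEM 1.3.0 and the dm6 build are named in the submitters' processing notes. The sources used here do not give the annotation release, tool options or strand use. Each file the authors deposited holds RSEM expected counts per gene, TPM values and isoform-weighted lengths, per the file headers. The deposited FPKM column was not used.

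Expected counts were rounded, filtered (filterByExpr, minimum count 10) and scaled by TMM. The quasi-likelihood F-test of edgeR 4.0.16 (R 4.3.3) was used with Benjamini-Hochberg adjustment over all 8405 genes tested and a threshold of 0.05. CPM values use TMM-scaled totals. The SE is the absolute log2 fold change divided by the square root of F. The procedure was run on simulated counts with independent libraries. These lack the difference of replicate 1 from the others, so the run does not show how the calls behave in these data. Alternatives used DESeq2 1.42.0, limma 3.58.1 on log2(TPM + 1) and log2(TPM + 0.1), other scalings and filters (minimum count 50, or none), a replicate block, libraries left out or summed, and the median of each 1 Mb segment with at least 20 tested genes as an offset.

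Positions and shared exonic bases come from the Ensembl annotation in dm6 coordinates, matched by gene identifier for 31 members and by symbol for 3 (Orc1, RPA2 and RPA3). The members and lists were chosen with earlier results of these data known. All 34 members are named, and up to 4 called genes of lowest adjusted p are named from each other list. Plasmatocyte markers and the roX RNAs serve only as a check of the line. The promoter motif search planned for the members was not run.

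Both groups carry replicate numbers 1 to 3, and no label states a pairing. Across genes, deviations from the group means had an r of 0.52, 0.15 and 0.44 for the pairs numbered 1, 2 and 3. KO replicate 3 also correlated with WT replicate 2 (0.42) and KO replicate 2 with WT replicate 3 (0.17). These values set replicate 1 apart but do not single out the numbers 2 and 3 as pairs. The main fit had no block, because no label states a pairing, so its calls ignore any pairing. The replicate block was run as an alternative, with 9 members higher and 14 lower, beside 9 and 10 in the main fit.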

Additional observations from a re-analysis of the deposited data

How the results depend on the processing

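Over 18 alternatives, 7 of the 19 called replication genes were called each time in the same direction (Mcm5, Sld5, Mcm10, Cdc7, chif, RfC38 and RPA3). A further 7 lost the call only with 1 Mb segment medians as an offset (Orc1, Orc2, geminin, dpa, CDC45L, RPA2 and RnrL). The count of members lower in KO, 10 as reported, was 19 without both number-1 libraries and 4 with the segment offset. The cause was not tested. Leaving out 1 library at a time gave 8 to 14 lower and 6 to 7 higher members, with a median log2 fold change of -0.14 to -0.10. The replicate block added Orc5, Mcm6, Psf1 and RpA-70 as lower and changed no other member's call. The 6 other pathway lists held 17 higher and 24 lower genes of 72 (56.9% called, beside 54.1% of all genes tested), with 10 higher on log2(TPM + 0.1). With 1 library left out they held 12 to 21 higher and 18 to 25 lower genes. The segment offset reversed the log2 fold change of Orc5 (0.20), Mcm3 (0.097), Mcm7 (0.023), Psf2 (-0.091) and PCNA (0.17, called). The value of dup was -0.00829 with no low count filter, -0.0315 without both number-1 libraries and -0.00607 to 0.0509 with 1 library left out. That of Mcm3 was 0.0393 with upper quartile factors, 0.00799 with the stricter filter and -0.0779 to 0.0107 with 1 library left out.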
